A study of Mus musculus with 12 samples.

Results

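The NR4A nuclear receptors (Nr4a1, Nr4a2, Nr4a3), the EGR zinc-finger factors (Egr1, Egr2, Egr3), Nfatc1 and Irf4 encode transcription factors that T cells induce when the antigen receptor is engaged. They were followed here in CD4+ T cells sorted by an Eomes reporter. These 8 genes were taken by symbol from the 43626 genes of the count matrix, of which 23675 had any count, and all 8 passed the filter on low counts.

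Engagement of the antigen receptor raises calcium, which activates the phosphatase calcineurin and sends NFAT proteins into the nucleus, while the Ras and MAP kinase branch switches on the EGR genes. NR4A genes are immediate-early genes of both branches, and their protein products are orphan nuclear receptors that restrain T cell responses. In T cells that meet antigen for a long time, NFAT acting without its AP-1 partners is known to raise NR4A factors and TOX together with inhibitory receptors. EGR2 and EGR3 are known for their part in anergy, and IRF4 follows the strength of receptor signalling.

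Donor cells were naive CD4+ T cells (CD45RBhi CD25-) of mice carrying Eomes flox/GFP, with either no cre (called Het) or Lck-cre (called KO), a Cre driven by a T cell promoter. All recipients were adult male Rag2-/- mice, which cannot make T and B cells but keep their myeloid and NK cells, and the donor cells stayed in them for 3 weeks. GFP-positive (GFP+) and GFP-negative (GFP-) CD4+ cells were then sorted from each spleen and total RNA was sequenced after ribosomal depletion. The 12 libraries form 4 groups of 3 (Het GFP-, Het GFP+, KO GFP- and KO GFP+), and the 2 sorts of a genotype with the same replicate number came from 1 of 6 recipients. The Het and KO cells both carry the GFP allele, so no group has 2 unmodified copies of Eomes, and the labels give no age for the donors.

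Eomes itself was low in both GFP- groups (2.95 and 5.01 CPM, counts scaled to the library size), averaged 109 ± 17.4 CPM (SD, n = 3) in Het GFP+ and 41.3 ± 8.44 CPM in KO GFP+ cells. Counts over the whole gene do not show whether the floxed part was removed. The total count was 2116894 in KO GFP+ replicate 2, the shallowest library, and up to 18167236 elsewhere. The GFP+ libraries came from 18000 to 117000 sorted cells and the GFP- ones from 645000 to 2100000. Features that each took over 5% of a library held 58.3% of Het GFP+ replicate 2 and 54.3% of KO GFP+ replicate 2, against 16.3% to 30.9% elsewhere. On the first principal component KO GFP+ replicate 1 lay at -17.8, within the range of the GFP- libraries, whereas the other GFP+ libraries lay apart from them. All 9 CD4+ T cell markers were detected in every group, and their summed level (2273 to 3494 CPM) was lower in the GFP+ library of every recipient. The sum of 15 myeloid markers and that of 6 erythroid markers were higher in the GFP+ library in 6 of 6 recipients, with 274, 1025 and 2173 CPM of myeloid markers in Het GFP- replicates 1, 2 and 3, 761 to 5500 in Het GFP+, 53.2 to 880 in KO GFP- and 436 to 2130 in KO GFP+ libraries. The defining B cell marker Pax5 was at 0 in both GFP+ groups, and the sum of 5 NK markers was 2.53 to 19.1 CPM. In these bulk samples more cells of a type and more RNA per cell cannot be told apart.

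Per length of exon, Nfatc1 was the most abundant of the 8, with a mean of 32.5 RPKM (CPM per kilobase of exon) over the 12 libraries. It was followed by Irf4 (13.7), Nr4a1 (11.7), Egr1 (8.29), Egr2 (7.58), Nr4a2 (5.76), Egr3 (3.14) and Nr4a3 (2.61). Every neighbouring pair in that order overlapped between libraries except Nfatc1 and Irf4, whose ranges were 19.5 to 56.9 and 8.11 to 19.4 RPKM. Of the 8, Nr4a2 had the widest range relative to its mean, from 0.537 to 22.6 RPKM.

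**Figure D1:**
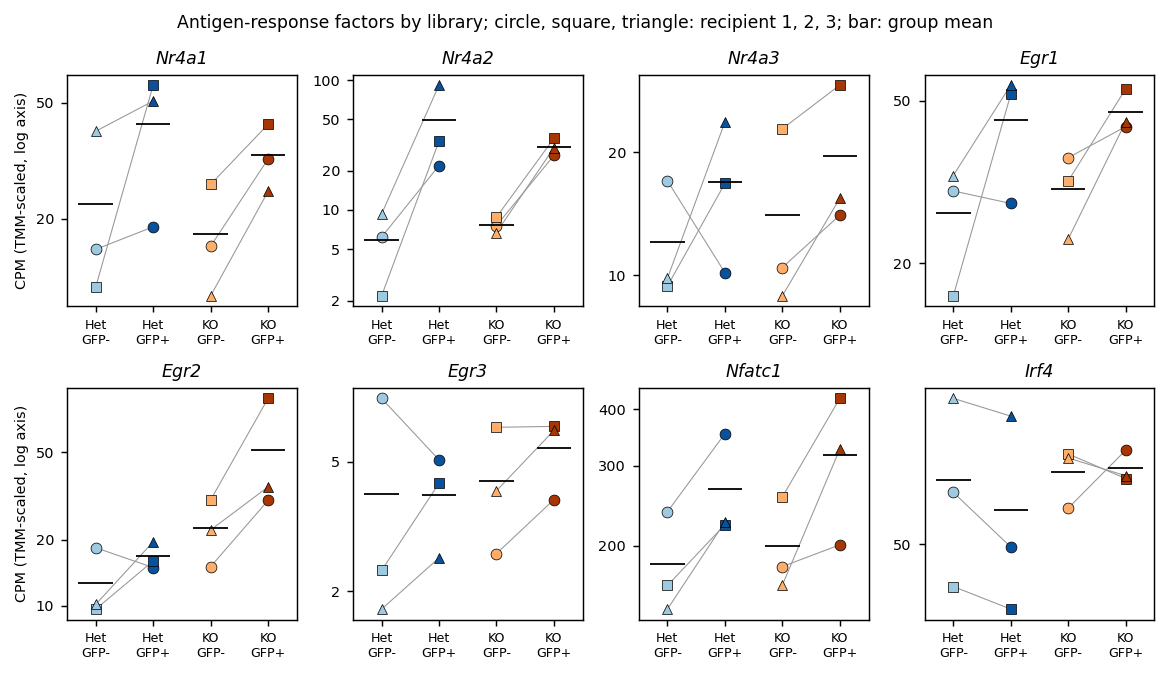
CPM of each of the 8 genes (log axis, scaled by TMM) in the 12 libraries, by group on the horizontal axis. Symbols mark the recipient, grey lines join the 2 sorts of a recipient and black bars are group means of 3. Nr4a2 separates GFP+ from GFP- libraries without overlap in both genotypes, whereas the Irf4 groups overlap.

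The NR4A family is given first, with the sequence in front of each gene, because the family members behaved unequally and share promoter elements. Nr4a1 (ENSMUSG00000023034.6) lies on chromosome 15 at 101266846 to 101274792 on the plus strand, Nr4a2 (ENSMUSG00000026826.9) on chromosome 2 at 57106830 to 57124003 on the minus strand and Nr4a3 (ENSMUSG00000028341.5) on chromosome 4 at 48045153 to 48086447 on the plus strand of GRCm38. The stretches printed here are taken from the 250 bases before the annotated start of each gene in RefSeq (GRCm38.p6), read 5′ to 3′ on the gene's strand. For Nr4a1 (chr15:101266596-101266845) and Nr4a2 (chr2:57124004-57124253) all 250 bases are shown, ending just before that start. For Nr4a3, whose RefSeq start lies downstream of the start given above, only the 98 bases outside annotated exons (chr4:48045055-48045152) are shown, and they end just before 48045153. Capitals mark the half-site of the cAMP response element, TGACG on either strand (CGTCA on the other), and the EGR binding site GCGNGGGCG on either strand.
Nr4a1: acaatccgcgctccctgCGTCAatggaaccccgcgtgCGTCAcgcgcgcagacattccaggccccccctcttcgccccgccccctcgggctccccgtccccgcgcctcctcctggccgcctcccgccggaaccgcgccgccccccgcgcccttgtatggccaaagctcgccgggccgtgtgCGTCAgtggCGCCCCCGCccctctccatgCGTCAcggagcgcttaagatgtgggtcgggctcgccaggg
Nr4a2: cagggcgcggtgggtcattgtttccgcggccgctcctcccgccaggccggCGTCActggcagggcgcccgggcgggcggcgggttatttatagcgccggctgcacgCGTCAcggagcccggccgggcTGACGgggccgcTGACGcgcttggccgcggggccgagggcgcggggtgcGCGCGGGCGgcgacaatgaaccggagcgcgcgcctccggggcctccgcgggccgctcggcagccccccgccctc
Nr4a3: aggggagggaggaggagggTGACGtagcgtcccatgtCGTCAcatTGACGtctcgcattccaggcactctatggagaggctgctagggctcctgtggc
CREB and related factors bind the cAMP response element, and EGR proteins bind the GC-rich site. Within 250 bases before the start, each of the 3 NR4A genes held 4 half-sites, of which 3 of the 4 of Nr4a3 lie in the printed stretch. Among 32851 windows of 250 bases before a gene start, 17.8% held at least 1 half-site and 0.137% (45 windows) held 4 or more. Nr4a1 and Nr4a2 each held 1 EGR site, which 4.7% of windows hold, and Nr4a3 none. The full element TGACGTCA, the NR4A element AAAGGTCA and the CArG box bound by serum response factor were not among the letters of these windows. The 3 windows are alike in their number of half-sites, while Nr4a2 alone of the family was called in the fits to all 12 libraries that follow.

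Nr4a2 encodes the orphan receptor NURR1. In Het GFP- replicates 1, 2 and 3 it stood at 6.18, 2.18 and 9.31 CPM, and in the Het GFP+ libraries of the same recipients at 22.0, 34.0 and 91.8 CPM. In KO GFP- replicates it stood at 7.58, 8.82 and 6.70 CPM, and in KO GFP+ replicates at 26.4, 35.7 and 30.2 CPM. Every GFP+ library lay above every GFP- library. Within 1 genotype, 12.7% of all tested genes in Het and 9.52% in KO were higher in GFP+ cells without overlap. The share of genes that do so across both genotypes was not counted. The highest of the 12 was Het GFP+ replicate 3, also the library with the most myeloid marker transcripts. The counts behind these values ran from 32 to 943 reads.

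Nr4a2 rose in Het GFP+ against Het GFP- cells by 3.07 on the log2 scale (SE 0.54, edgeR's quasi-likelihood test, adjusted p = 0.0119). It was the only 1 of the 8 genes called, where 1.82% of the 13238 genes tested were called higher and 3.45% in either direction. In KO cells the difference was 1.98 (SE 0.53) and did not pass (adjusted p = 0.172), in a comparison where none of the 8 genes and 0.128% of all genes were called. With the recipient as a block the KO difference was 2.00 (SE 0.30, edgeR, adjusted p = 0.00257). Without the block it was called by DESeq2 (2.01, adjusted p = 0.0105) and by edgeR without KO GFP+ replicate 1 (2.09, adjusted p = 0.0399). Not every alternative called it, and over all 25 its adjusted p ran from 0.00047 to 0.545 (edgeR or DESeq2). Within recipients GFP+ cells held 3.42-fold to 14.5-fold as much Nr4a2 as GFP- cells, in 6 of 6 recipients. The exact permutation test gave p = 0.1 in each genotype, the smallest p that 3 against 3 allows. The authors' deposited table listed Nr4a2 at a log2 fold change of 2.37 in the Het comparison, and their table for the KO comparison listed it at 1.79.

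The reporter difference of Nr4a2 was not shown to differ between genotypes. The Het difference exceeded the KO difference by 1.09 (SE 0.73, edgeR's quasi-likelihood test, adjusted p = 1.00), with values within recipients of 1.80, 3.86 and 3.28 on the log2 scale in Het and 1.77, 2.00 and 2.14 in KO. The 2 GFP+ groups overlapped, with a difference of 0.71 (SE 0.51, Het minus KO) that turned to -0.14 without Het GFP+ replicate 3. Without that library the Het reporter difference was 2.25 (edgeR, adjusted p = 0.0291). The 3 KO recipients were close to each other in Nr4a2 and the 3 Het recipients were spread.

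Nr4a1 encodes NUR77, the family member most used as a reporter of antigen receptor signalling. Its CPM in Het GFP- replicates 1, 2 and 3 was 15.7, 11.7 and 39.9, and in Het GFP+ 18.8, 57.4 and 50.6. In KO GFP- it was 16.1, 26.3 and 10.9, and in KO GFP+ 32.1, 42.1 and 24.9. Each GFP+ library exceeded the GFP- library of its recipient, but the groups overlapped in both genotypes. The largest difference within a recipient, 2.28 on the log2 scale, was in Het recipient 2, and the smallest, 0.25, in Het recipient 1. The fitted differences were 0.89 (SE 0.50) in Het and 0.86 (SE 0.51) in KO, and neither passed (edgeR's quasi-likelihood test, adjusted p = 0.289 and 0.369). With the recipient as a block they were 0.91 (adjusted p = 0.0614) and 0.97 (adjusted p = 0.0577), and leaving 1 recipient out of that fit brought calls. Nr4a1 was then called in Het without Het recipient 3 (1.31, adjusted p = 0.0431) or KO recipient 1 (0.91, adjusted p = 0.0433), and in KO without Het recipient 2 (0.96, adjusted p = 0.00511) or 3 (0.98, adjusted p = 0.0474). Over all alternatives the difference ran from 0.29 to 1.62 in Het and from 0.63 to 1.26 in KO. The GFP- library with the highest Nr4a1, Het replicate 3, was also the GFP- library with the most myeloid marker transcripts (2173 CPM).

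Nr4a3, which encodes NOR1, was the least abundant per length. It ranged from 9.39 to 17.0 CPM in Het GFP-, 10.1 to 23.7 in Het GFP+, 8.89 to 22.9 in KO GFP- and 14.0 to 29.3 in KO GFP+ libraries. All 4 groups overlapped, and the reporter differences of 0.49 (SE 0.43) in Het and 0.40 (SE 0.44) in KO did not pass. In Het recipient 1 Nr4a3 was lower in the GFP+ cells by a log2 difference of -0.74, against the direction of the other 5 recipients. Without Het recipient 1 the Het difference in the fit with the recipient as a block was called (1.07, edgeR, adjusted p = 0.0167). Over all alternatives it ran from 0.02 to 1.07 in Het, the lowest without Het recipient 3. In KO it ran from 0.07 without KO GFP+ replicate 2 to 0.95 without KO GFP- replicate 2, and no alternative called it.

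Set per length of exon, Nr4a2 made up 7.85% to 21.9% of the NR4A transcripts in GFP- libraries and 24.3% to 48.1% in GFP+ libraries. These ranges did not overlap in either genotype. Het GFP+ replicate 3 was the single library in which Nr4a2 (22.6 RPKM) exceeded Nr4a1 (20.5 RPKM).

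**Figure D2:**
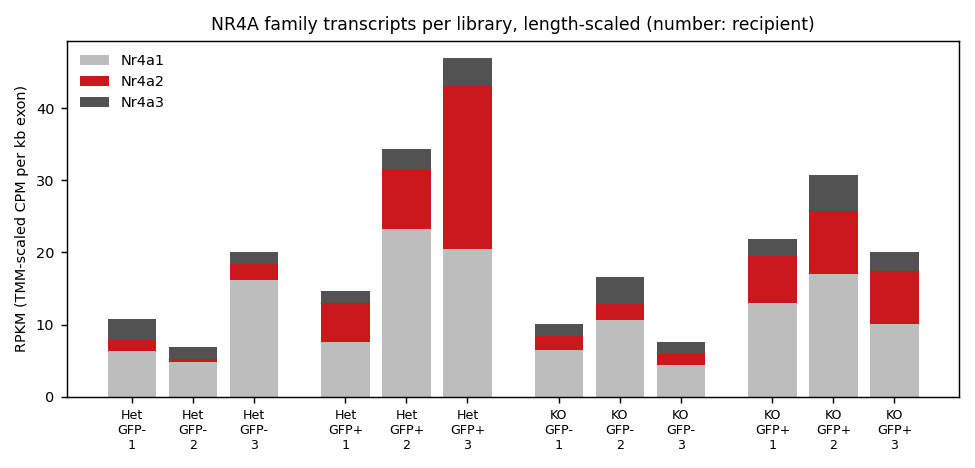
RPKM of the 3 NR4A genes stacked per library, with the 12 libraries grouped by genotype and sort on the horizontal axis and the recipient number under each bar. Nr4a1 is the largest part of each bar except in Het GFP+ replicate 3, and the Nr4a2 part is a larger share of every GFP+ bar than of any GFP- bar.

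Myeloid cells also transcribe NR4A genes, and their markers moved with the reporter, so the values are set side by side. KO GFP+ replicates 1 and 3 had myeloid marker sums of 804 and 436 CPM, below the 1025 and 2173 CPM of Het GFP- replicates 2 and 3. Nr4a2 was 26.4 and 30.2 CPM in those KO GFP+ libraries and 2.18 and 9.31 CPM in those Het GFP- libraries. For Nr4a1 the same 4 libraries were not ordered in that way, at 32.1 and 24.9 CPM against 11.7 and 39.9 CPM. The part of myeloid transcripts in the differences of these genes was not tested.

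**Figure D3:**
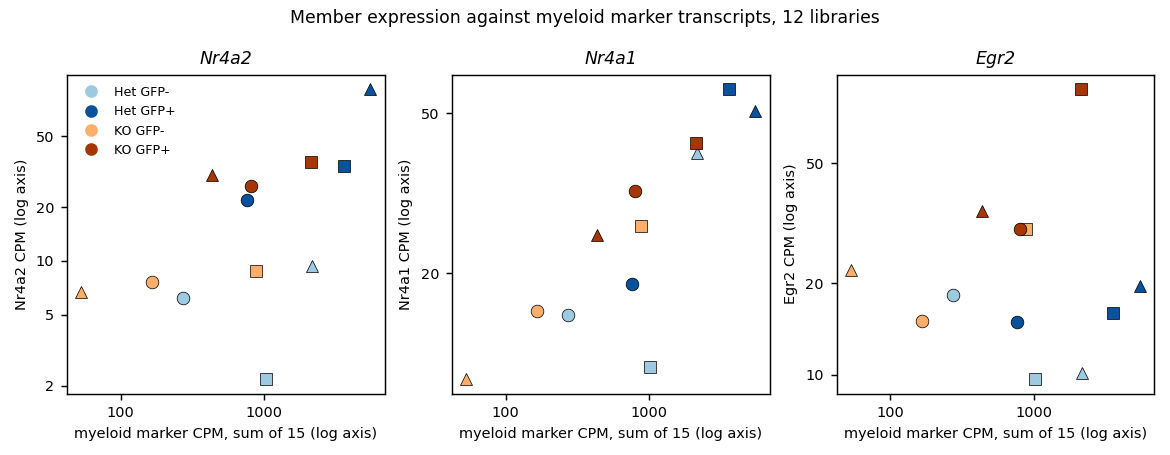
CPM of Nr4a2, Nr4a1 and Egr2 (vertical, log axis) against the summed CPM of 15 myeloid markers (horizontal, log axis) in the 12 libraries. Colours mark the group and circle, square and triangle mark replicates 1, 2 and 3. The GFP+ libraries lie above the GFP- libraries in Nr4a2, and in each recipient the GFP+ library also has the higher myeloid sum.

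Egr2 (ENSMUSG00000037868.11, chromosome 10 at 67535475 to 67542188, plus strand) had the highest group mean in KO GFP+ cells. Its CPM was 18.4, 9.67 and 10.2 in Het GFP- replicates 1, 2 and 3 and 14.9, 16.0 and 19.6 in Het GFP+ replicates. It was 15.1, 30.3 and 22.1 in KO GFP- and 30.2, 87.8 and 34.8 in KO GFP+ replicates. The KO GFP+ libraries all lay above the Het GFP+ libraries, and KO GFP+ replicate 2 lay far above every other library. That library was the shallowest of the 12, with 123 Egr2 reads.

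Between GFP+ cells Egr2 differed by -1.53 (Het minus KO, SE 0.42) and did not pass edgeR's quasi-likelihood test (adjusted p = 0.324). None of the 8 genes was called there, and 0.106% of all genes were. The 2 groups did not overlap for Egr2 alone of the 8, where 7.48% of all genes had groups that did not overlap. DESeq2, which called 0.7% of genes, called it (-1.58, adjusted p = 0.0341), as did edgeR without the filter on low counts (adjusted p = 0.0425). The authors' deposited table lists Egr2 with a log2 fold change of 1.17 (adjusted p = 0.0421) in a table whose sign, checked against the counts, is KO minus Het. Without KO GFP+ replicate 2 the difference was -0.96 (edgeR, adjusted p = 0.385). In that library Xist, the transcript of X inactivation, was at 55.7 CPM, against 499.9 to 1151 CPM in the other KO libraries. The transcript Ddx3y, from the Y chromosome, was at 0 to 9.76 CPM in Het and 15.2 to 67.9 CPM in KO libraries. The recipients were male, and whether Ddx3y came from donor cells or from carried-over recipient cells was not tested. The sex of the cells and the genotype cannot be told apart in any comparison of Het with KO cells. These transcripts also differed between the 2 sorts of a recipient. The log2 difference, GFP+ minus GFP-, ran from -3.16 (KO recipient 2) to 0.86 for Xist. For Ddx3y it ran from -1.67 to 3.13 (Het recipient 2). What part this had in the reporter differences was not tested.

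The reporter difference of Egr2 in KO cells was 1.11 (SE 0.40, adjusted p = 0.237) and became 1.05 (SE 0.24, adjusted p = 0.0156) with the recipient as a block, both by edgeR's quasi-likelihood test. The blocked fit called 3 of the 8 genes higher in KO GFP+ cells, Nr4a2, Egr2 and Nfatc1, where 9.6% of all genes were called higher and 17.7% in either direction. Without KO recipient 2 the blocked Egr2 difference was 0.82 (adjusted p = 0.108) and without KO recipient 3 it was 1.26 (adjusted p = 0.0505). Without the block it was 0.53 without KO GFP+ replicate 2 (adjusted p = 0.585) and 1.41 without KO GFP+ replicate 1 (adjusted p = 0.0431). In Het cells the difference was 0.41 (SE 0.41) without the block, and the test of Het against KO reporter differences gave -0.70 (SE 0.57, adjusted p = 1.00). Egr2 was higher in the GFP+ cells of 5 of 6 recipients, the exception being Het recipient 1 (-0.30).

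Egr1, the EGR gene most directly switched on by the MAP kinase branch, averaged 26.5 ± 8.67 CPM in Het GFP-, 44.9 ± 14.7 in Het GFP+, 30.3 ± 6.81 in KO GFP- and 47.1 ± 5.63 in KO GFP+ cells (SD, n = 3 each). The KO groups did not overlap, with 22.9 to 36.3 CPM below 43.2 to 53.5 CPM, beside the 9.52% of all genes given for Nr4a2. In Het cells the groups overlapped through replicate 1, which held 30.1 CPM in GFP- and 28.0 CPM in GFP+ cells. Neither difference passed, at 0.75 (SE 0.30, adjusted p = 0.164) in Het and 0.62 (SE 0.30, adjusted p = 0.297) in KO by edgeR's quasi-likelihood test. With the recipient as a block Egr1 was called in Het when Het recipient 1 (1.15, adjusted p = 0.0181) or KO recipient 1 (0.74, adjusted p = 0.0345) was left out, and in KO when KO recipient 1 was left out (0.89, adjusted p = 0.0398). Over all alternatives it ran from 0.32 (Het recipient 2 left out) to 1.15 in Het and from 0.36 (with the GC and length offset) to 0.89 in KO.

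Egr3 had 9 to 105 reads per library, the fewest of the 3 EGR genes among the 8 factors in every library. Its group means lay between 3.96 and 5.50 CPM, a narrower span than the 1.76 to 7.84 CPM of the Het GFP- libraries alone. The reporter differences were -0.01 (SE 0.56) in Het and 0.29 (SE 0.56) in KO, and neither passed (edgeR's quasi-likelihood test, adjusted p = 0.993 and 0.790). The Het GFP- libraries held 104, 34 and 31 Egr3 reads in replicates 1, 2 and 3, and without replicate 1 the Het difference was 0.95 (adjusted p = 0.266).

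**Figure D4:**
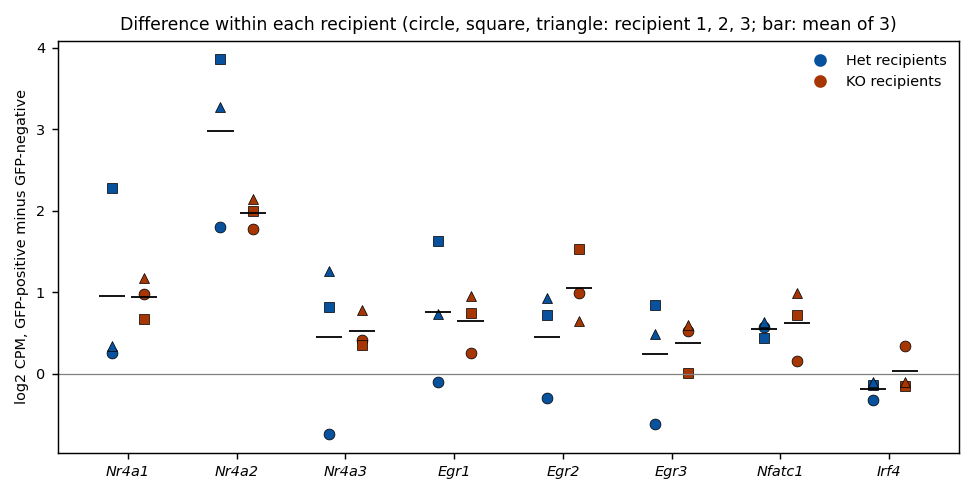
Difference in log2 CPM between GFP+ and GFP- cells of the same recipient (vertical) for each of the 8 genes (horizontal). Circle, square and triangle mark recipients 1, 2 and 3 of each genotype and bars are means of 3. Nr4a2 is highest in both genotypes, and Het recipient 1 lies below 0 for Nr4a3, Egr1, Egr2 and Egr3.

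Within recipients 3 of the 8 genes, Nr4a1, Nr4a2 and Nfatc1, were higher in GFP+ cells in 6 of 6 recipients, where 17.7% of all tested genes were higher and 19.9% lower in all 6. Nr4a3, Egr1, Egr2 and Egr3 were higher in 5 of 6, and in each case Het recipient 1 was the exception. Irf4 was higher in 1 of 6. Het recipient 1 also had the smallest difference in Nr4a1 (0.25), with Het recipient 3 next to it (0.34). In Nr4a2 it was the lowest Het recipient (1.80), but KO recipient 1 was lower (1.77). In Nfatc1 (0.57) it lay within the range of the others.

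Nfatc1 encodes the NFAT protein whose own gene is a target of NFAT. In Het GFP- replicates 1, 2 and 3 it stood at 238, 163 and 145 CPM and in Het GFP+ at 353, 222 and 226 CPM. In KO GFP- it stood at 180, 256 and 164 CPM and in KO GFP+ at 201, 423 and 327 CPM. The groups overlapped in both genotypes, while in each recipient the GFP+ library was the higher. The differences were 0.56 (SE 0.30) in Het and 0.66 (SE 0.30) in KO and did not pass edgeR's quasi-likelihood test (adjusted p = 0.278 and 0.285).

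With the recipient as a block Nfatc1 rose in GFP+ cells by 0.55 (SE 0.16, adjusted p = 0.0332) in Het and 0.63 (SE 0.16, adjusted p = 0.0270) in KO. In the Het comparison it and Nr4a2 were the 2 of 8 called, beside 12.8% of all genes called higher and 22.2% in either direction. These calls ended when GC content and length were added to the blocked fit, at 0.24 (adjusted p = 0.233) and 0.32 (adjusted p = 0.120). They also ended without any 1 of the 3 Het recipients (adjusted p = 0.111 to 0.132) and without KO recipient 2 or 3 (adjusted p = 0.127 and 0.272). The values are from edgeR's quasi-likelihood test.

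Irf4, whose product binds DNA with BATF and AP-1 in T cells, was the member with the smallest reporter difference in KO. It averaged 65.2 ± 24.9 CPM in Het GFP-, 57.6 ± 24.4 in Het GFP+, 67.5 ± 8.10 in KO GFP- and 68.7 ± 4.51 in KO GFP+ cells (SD, n = 3 each). All groups overlapped. The fitted differences were -0.16 (SE 0.30) in Het and 0.03 (SE 0.30) in KO, and in Het each recipient's GFP+ cells held less, with log2 differences of -0.11 to -0.32.

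In the comparison of GFP- cells none of the 8 genes was called, and edgeR called 0.0% of all genes (0 of 13238, against 45 genes or 0.331% by DESeq2). The difference farthest from 0 was that of Egr2, -0.83 (Het minus KO, SE 0.40, unadjusted p = 0.0586 by edgeR's quasi-likelihood test). The other 7 lay between -0.38 for Nr4a2 and 0.34 for Nr4a1. The interaction of GFP and genotype called none of the 8 and 0.00755% of all genes, and with the recipient as a block none of the 8 and 0.0755%.

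Genes around these factors were grouped into 6 lists by role. A gene named below for 1 genotype alone was not thereby shown to differ between the genotypes. In the Het reporter comparison the median of the 8 factors was 0.52 on the log2 scale against -0.02 over all tested genes, and in KO 0.64 against -0.02. None of the genes of the 6 lists was called in KO without the block, so the counts in the following sentences are from edgeR's quasi-likelihood test with the recipient as a block, where the background is 12.8% higher and 9.41% lower in Het and 9.6% higher and 8.14% lower in KO.

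Of 15 genes of the calcium and NFAT pathway, 1 was higher and 1 lower in Het and 2 were higher and 1 lower in KO. Nfatc3, another calcineurin-dependent NFAT, fell by 0.65 (SE 0.15) in Het and by 0.66 (SE 0.15) in KO, opposite in sign to Nfatc1. Nfat5, the NFAT relative that answers osmotic stress, rose by 0.57 in Het and 0.61 in KO. Itpr1, a calcium release channel, rose by 0.51 in KO. The list's median was -0.02 in Het and 0.06 in KO, beside -0.02 and -0.03 for all genes.

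Of 11 tested EGR co-repressors and anergy genes, 5 were higher and 1 lower in Het and 1 was higher in KO. Cblb, the ubiquitin ligase raised in anergic T cells, rose by 1.02 (SE 0.17) in Het. Without the block it was the only gene of this list called in Het (1.08, adjusted p = 0.0389). Nab2, the co-repressor that binds EGR proteins, rose by 0.63 (SE 0.15) in Het. Dgkz, a diacylglycerol kinase that dampens Ras activation, rose in both, by 0.84 (SE 0.22) in Het and 1.01 (SE 0.22) in KO.

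Of 12 genes of MAP kinase feedback, 4 were higher in Het and 2 were higher and 1 lower in KO. Dusp4, a nuclear MAP kinase phosphatase, rose by 1.88 (SE 0.20) in Het and 0.81 (SE 0.19) in KO. Dusp2, a phosphatase of activated T cells, rose by 0.64 in Het and 0.63 in KO. Spred2 and Spry2, inhibitors of Ras signalling, rose by 1.19 and 1.53 in Het, and Spred2 was also called there without the block. Dusp5, a phosphatase of ERK, fell by 0.46 in KO.

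Of 10 partners and relatives of IRF4, 3 were higher in each genotype and none lower. Irf8, the closest relative of Irf4 and also a myeloid and B cell factor, rose by 1.51 (SE 0.23) in Het and 1.10 (SE 0.23) in KO beside blocked values for Irf4 itself of -0.19 (SE 0.14) and 0.04 (SE 0.14). Ikzf3, the Ikaros family factor AIOLOS, rose by 1.20 and 0.56. Prdm1, encoding BLIMP1, rose by 0.51 in Het, and Rel, an NF-kappaB subunit, by 0.75 in KO.

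Of 19 activation and inhibitory receptors and associated factors, 7 were higher and 6 lower in Het and 1 was higher and 4 lower in KO. Tox, a factor of chronically stimulated T cells, rose by 4.52 (SE 0.30) in Het and 1.79 (SE 0.28) in KO. Pdcd1, encoding PD-1, rose by 1.96 in Het, as did Lag3 by 2.53. Il2ra, encoding the inducible chain of the interleukin-2 receptor, fell by 1.80 in Het and by 1.08 in KO. The costimulatory receptors Icos and Cd28 fell by 1.03 and 0.81 in KO. Both were also lower in the GFP+ cells of every Het recipient, with mean log2 differences of -1.39 and -0.94. Tox, Pdcd1, Lag3 and Il2ra were also called in Het without the block.

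Of 26 immediate-early and stress genes, which include heat-shock genes and others that tissue dissociation raises, 8 were higher and 2 lower in each genotype. Fos, a subunit of AP-1, rose by 0.88 (SE 0.17) in Het and 0.91 (SE 0.17) in KO. Klf4, a zinc-finger factor that is also high in myeloid cells, rose by 2.09 and 2.35. Dusp1, a phosphatase induced by stress, rose by 0.85 in Het, and in KO Fosb rose by 1.36 and the stress factor Atf3 by 2.78. In the other genotype each was also higher in the GFP+ cells of every recipient. The mean log2 differences were 0.70 for Dusp1 in KO and 0.87 and 2.05 for Fosb and Atf3 in Het. Btg2, an anti-proliferative gene, fell by 0.86 in Het and was the gene of this list called without the block. Myeloid marker sums were higher in the same GFP+ libraries, and their part in these list counts was not tested.

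**Figure D5:**
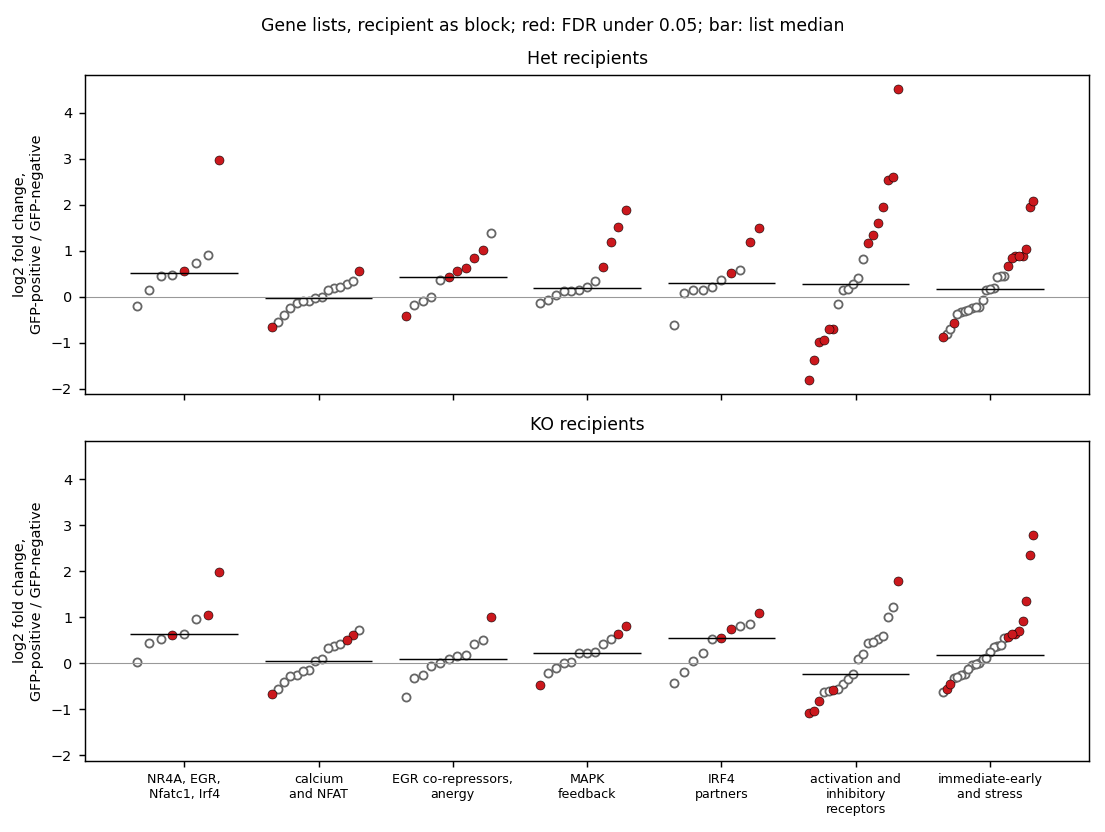
Log2 fold change of GFP+ over GFP- cells (vertical) for the genes of each list (horizontal), from the fit with the recipient as a block, in Het (top) and KO (bottom). Each point is a gene, red points passed an adjusted p of 0.05 and bars are list medians. Nr4a2 is the top point of the 8 factors in both panels, at 2.98 and 2.00, and Tox the top point of the receptor list, at 4.52 and 1.79.

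By Pearson correlation of log2 CPM over the 12 libraries, which share recipients, depth and sort, the genes most like Nr4a2 were Gga2 (r = 0.979), an adaptor of Golgi transport, and Il4ra (r = 0.978), a chain of the interleukin-4 receptor. The genes most like Nr4a1 were Atf3 (0.945) and Ppfia4 (0.938), and those most like Egr1 were Maff (0.937) and Lat2 (0.930). Nr4a3 was most like Arfgef3 (0.906) and Tiam1 (0.904), Egr2 most like Fam124a (0.938) and Ano7 (0.935), and Egr3 most like Heatr5b (0.909) and Mtf2 (0.904). Nfatc1 was most like Tsc2 (0.963) and Ttbk1 (0.962). Irf4 was most like the MAP kinase phosphatase gene Dusp6 (0.923).

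Among the 8 factors themselves, Nr4a2 followed Egr1 (r = 0.884) and Nr4a1 (0.784) more closely than Egr2 (0.472) or Egr3 (0.158). Egr2 was closest to Nr4a3 (0.712) and Nfatc1 (0.706), and Nfatc1 to Egr3 (0.740). Irf4 had no coefficient above 0.267 with any of the other 7. These coefficients describe the libraries and mix the sort, the genotype and the recipient.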

How the data were processed

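Whole-number counts per gene, deposited by the authors as 1 matrix and 1 file per library (0 cells differed), were used as they stand. Per the submitters' processing notes, bcl2fastq 1.8.4, TopHat2 2.0.13, featureCounts 1.5.0-p1, DESeq2 1.6.1 and build mm10 were used. The kit marks strand, but the strand setting of counting is not given in the sources used here. Symbols were found for 42462 genes through GENCODE M21, and 3 promoter stretches were taken from RefSeq. The authors' deposited DESeq2 tables, described with their log2 fold changes, standard errors, p-values, mean normalized signal and test score, list genes with an adjusted p-value under 0.05.

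Libraries were tested with edgeR 4.0.16 in R 4.3.3: TMM scaling, filterByExpr (minimum count 10, minimum total 15, 13238 genes), 1 mean per group over 12 libraries, quasi-likelihood F-tests, two-sided, Benjamini-Hochberg adjustment, calls at 0.05. SE is the log2 fold change over the square root of F. CPM is scaled by TMM, and RPKM is that CPM per kilobase of exon. Depth was 2116894 to 18167236 counts, and counts cover counting error only. No 2 replicates of a group agreed within counting error (chi-square divided by its degrees of freedom was 37.2 to 324).

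Whether recipients shared a donor is not stated, so p-values measure the spread between these recipients. The design text says that same-numbered sorts share a recipient. Deviations from the group means correlated within recipients with r of 0.547, 0.241 and 0.617 in Het and 0.507, 0.506 and 0.263 in KO. Alternatives were the recipient block, DESeq2 1.42.0, RLE scaling, no filter, only the 2 groups, a GC and length offset (splines with 5 degrees of freedom) and leaving out libraries. Blocked fits without a recipient were added after seeing the data. Fits were tested on simulated data. The 8 genes, the lists and the markers were chosen with earlier results of these data known. Named list genes are the called ones with the smallest adjusted p, at most 4 per list and comparison, and for likeness the 2 genes with the highest r. Some genes that this rule names are not reported here.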

Additional observations from a re-analysis of the deposited data

Results flagged for a closer look

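The reporter difference of Tox differed between genotypes when the recipient was fitted as a block: the Het difference exceeded the KO difference by 2.72 on the log2 scale (SE 0.39, edgeR's quasi-likelihood test, adjusted p = 0.0363, where 0.0755% of all genes were called). Within recipients the difference was 3.95, 4.13 and 5.33 in Het and 1.23, 1.66 and 2.43 in KO. These values come from the same libraries as the test and add no separate evidence. Without the block the value was 2.80 and did not pass (adjusted p = 1.00), and DESeq2 gave 2.76 (adjusted p = 0.0351). None of the 8 factors was called in that test.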

How the results depend on the processing

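The count of factors called moved under several settings. In Het GFP+ against GFP- cells it was 1, and 2 with the recipient block. In KO cells it was 0, and 3 with the recipient block, 2 with the block and the GC and length offset, and 1 each with DESeq2, with no filter on low counts and with only the 2 groups fitted. In Het against KO GFP+ cells it was 0, and 1 with DESeq2 and with no filter. Over fits that left out 1 library, or 1 recipient with the block, the counts ran from 1 to 4 in Het and from 0 to 4 in KO, where leaving out KO GFP+ replicate 1 without the block called Nr4a2 (2.09, adjusted p = 0.0399) and Egr2 (1.41, adjusted p = 0.0431). The recipient block added the calls of Nfatc1 in Het and of Nr4a2, Egr2 and Nfatc1 in KO. It changed no other call of the 8 factors. The Het call of Nr4a2 held in all 25 alternatives, at 2.25 to 3.58 (edgeR or DESeq2, adjusted p up to 0.0454). Its KO difference ran from 1.88 to 2.12, with adjusted p from 0.00047 to 0.545 by the same tests.

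Signs changed for differences that did not pass. Egr3 in Het was -0.01, and 0.15 with the recipient block, 0.0033 with DESeq2, 0.0076 with RLE scaling, 0.0046 with only the 2 groups, 0.089 with the GC and length offset and 0.27 with the offset and block. Irf4 in KO was 0.03, and -0.032 with no filter and -0.0060 with the offset. The interactions of Nr4a1 and Nr4a3 were 0.03 and 0.09, and -0.050 and -0.068 with the recipient block and -0.12 and -0.065 with the offset and block. Without 1 library, or 1 recipient with the block, the reporter difference of Egr3 in Het ran from -0.34 to 0.95, that of Irf4 in Het from -0.53 to 0.17 and that of Irf4 in KO from -0.10 to 0.11. Between GFP+ groups Nr4a2 ran from -0.14 to 1.08, Nr4a3 from -0.51 to 0.18 and Egr1 from -0.26 to 0.20. Between GFP- groups Egr1 ran from -0.41 to 0.022, Egr3 from -1.11 to 0.19, Irf4 from -0.41 to 0.16, Nr4a1 from -0.40 to 0.70, Nr4a3 from -0.56 to 0.28 and Nfatc1 from -0.39 to 0.045. The interaction ran from -0.66 to 0.74 for Nr4a1, -0.67 to 0.63 for Egr3, -0.35 to 0.15 for Nfatc1, -0.53 to 0.52 for Nr4a3, -0.32 to 0.48 for Egr1 and -0.57 to 0.13 for Irf4. The cause of these changes was not tested. The lowest count of Egr3, 9 reads, was in KO GFP+ replicate 2, the library with 2116894 counts.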
